A study of Mus musculus with 8 samples.

Results

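The mitotic kinesins described here are 10 motor protein genes, *Kif11*, *Kif15*, *Kif18a*, *Kif2c*, *Kif22*, *Kif4*, *Kif23*, *Kif20a*, *Kif20b* and *Kif14*. They were chosen by name for their roles in cell division, with earlier results of these data known. Each was found once among the 54752 gene identifiers of the count tables. The tables hold RNA-seq read counts of 8 brains from C57BL/6 mouse fetuses (C57BL/6Slac in the study's methods) at E15.5, none with a genetic change. Brains F34, F35 (females), M28 and M29 (males) form the stress group, in which the dam was exposed to chronic unpredictable mild stress (CUMS), a daily change of mild stressors, during pregnancy until the day before the brains were taken. Brains F36, F37 (females), M30 and M31 (males) form the control group, whose dam received no CUMS. The 4 brains of each group came from a single litter. The effect of condition therefore cannot be told apart from that of litter, and the p-values below measure the spread between littermates. Each library was made from 1 brain, described as whole brain in the labels and as half_whole_brain in a sample sheet of the study. In such bulk RNA, more dividing cells and more RNA per dividing cell cannot be told apart.

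Kinesins are motors that use ATP to move along microtubules or to take them apart. In a dividing cell they build the bipolar spindle, move and align the chromosomes, and bundle the microtubules between the separating chromosomes where the cleavage furrow and the midbody form. At E15.5 the dividing cells of the mouse brain are mainly radial glia, the neural stem cells that line the ventricles, and the intermediate progenitors that they produce. The genes of this group are known for low transcription in resting cells and high transcription in G2 and mitosis, under the DREAM and MuvB complexes with B-Myb and FoxM1, which act through CHR and CCAAT elements near the start of the gene. KIF11 and KIF14 are known for inherited mutations that cause microcephaly in humans.

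Promoter letters were not themselves used to choose the genes, but the shares below are not an independent test. The study had already reported CCAAT, CHR and E2F motifs in promoters of its up-regulated genes. Genes of this group are also known for CHR and CCAAT elements. The RefSeq table of promoters on GRCm38.p6, each running from 250 bases before a gene's start to 50 after, held an entry for 9 of the 10 genes and none for *Kif20a*. Elements were searched on both strands, the CHR as TTTGAA or TTCGAA, the CCAAT box as CCAAT, and an E2F site as TTTGGCGC or TTTCGCGC. No 2 of the matches shared a base, although the E2F match and a CHR stood end to end in *Kif15* and the 2 CHR matches of *Kif20b* did so too. The 6 promoters below show the CHR close to the start in both called and uncalled genes, and 1 promoter without it. They are written 5′ to 3′ on the strand of the gene, with the matches in capitals, and the start of the gene follows the first 250 bases.
Kif11: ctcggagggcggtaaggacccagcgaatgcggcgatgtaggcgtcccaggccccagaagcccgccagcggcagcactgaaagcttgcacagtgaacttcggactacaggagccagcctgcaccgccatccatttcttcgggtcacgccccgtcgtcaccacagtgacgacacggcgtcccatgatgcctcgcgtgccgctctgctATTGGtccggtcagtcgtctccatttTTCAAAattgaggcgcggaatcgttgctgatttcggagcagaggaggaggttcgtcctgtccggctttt
Kif15: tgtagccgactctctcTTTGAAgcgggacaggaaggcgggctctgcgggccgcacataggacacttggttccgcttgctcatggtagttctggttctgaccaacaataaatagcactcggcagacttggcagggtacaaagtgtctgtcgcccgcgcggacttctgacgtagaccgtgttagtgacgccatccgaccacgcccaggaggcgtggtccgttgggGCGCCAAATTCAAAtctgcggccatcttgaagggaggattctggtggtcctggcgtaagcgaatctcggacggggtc
Kif22: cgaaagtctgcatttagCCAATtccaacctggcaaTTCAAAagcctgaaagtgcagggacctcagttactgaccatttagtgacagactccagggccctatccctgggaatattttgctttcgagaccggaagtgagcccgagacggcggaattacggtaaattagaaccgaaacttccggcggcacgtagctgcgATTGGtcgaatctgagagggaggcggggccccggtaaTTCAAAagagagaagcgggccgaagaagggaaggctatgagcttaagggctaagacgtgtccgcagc
Kif23: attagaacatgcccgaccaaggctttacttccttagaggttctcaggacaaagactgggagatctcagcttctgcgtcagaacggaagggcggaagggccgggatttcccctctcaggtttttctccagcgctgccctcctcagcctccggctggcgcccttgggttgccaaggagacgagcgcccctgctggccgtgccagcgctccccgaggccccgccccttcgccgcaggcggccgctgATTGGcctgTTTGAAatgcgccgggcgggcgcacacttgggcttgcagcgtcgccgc
Kif20b: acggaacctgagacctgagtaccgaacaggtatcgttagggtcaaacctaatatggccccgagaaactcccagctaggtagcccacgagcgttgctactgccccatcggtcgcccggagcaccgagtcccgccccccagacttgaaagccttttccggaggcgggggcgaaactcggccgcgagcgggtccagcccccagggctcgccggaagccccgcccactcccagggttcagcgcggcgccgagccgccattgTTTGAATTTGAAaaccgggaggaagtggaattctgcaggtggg
Kif18a: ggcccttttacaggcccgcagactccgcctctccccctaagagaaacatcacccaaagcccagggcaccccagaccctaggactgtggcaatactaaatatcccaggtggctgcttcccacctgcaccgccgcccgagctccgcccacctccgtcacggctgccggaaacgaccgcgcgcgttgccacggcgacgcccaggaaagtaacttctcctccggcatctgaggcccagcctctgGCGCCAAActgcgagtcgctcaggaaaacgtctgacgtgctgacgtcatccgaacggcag

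The *Kif11* promoter lies at chr19:37376132-37376431 on the plus strand, that of *Kif15* at chr9:122950831-122951130 on the plus strand and that of *Kif22* at chr7:127042371-127042670 on the minus strand. The *Kif23* promoter lies at chr9:61946750-61947049 on the minus strand, that of *Kif20b* at chr19:34922108-34922407 on the plus strand and that of *Kif18a* at chr2:109280488-109280787 on the plus strand. A CHR was present in 8 of the 9 promoters (88.9%) and in 19.2% of all 32851 promoters of the table. In the 15791 promoters of genes tested here the share was 14%. *Kif18a* was the 1 gene without a CHR. The first base of a CHR was at -19 in *Kif11* and in *Kif15*, at -17 in *Kif22*, at 3 in *Kif23*, at 20 in *Kif4*, and at 8 and 14 in *Kif20b*, counted from the RefSeq start of the gene. Farther matches of the CHR began at -103 in *Kif2c*, -215 in *Kif22*, -228 in *Kif14* and -234 in *Kif15*. Within 25 bases of the start, a window chosen after these positions were seen, a CHR was present in 6 of the 9 promoters (66.7%) and in 2.85% of all promoters. A CCAAT box was present in 5 of 9 (55.6%), those of *Kif11*, *Kif22*, *Kif23*, *Kif4* and *Kif14*, against 37.4% of all promoters. An E2F site was present in 2 of 9 (22.2%), *Kif15* and *Kif18a*, against 0.813% of all promoters. A CHR and a CCAAT box stood together in 5 of 9 and in 7.52% of all promoters. In the promoters of genes tested, 37.4% held a CCAAT box, 1.37% an E2F site, and 5.78% a CHR with a CCAAT box. A CHR within 25 bases of the start was present in 1.94% of them. The RefSeq start lay downstream of the gene start of the count tables by 328 bases in *Kif4*, 1505 in *Kif14* and 3867 in *Kif2c*, so the windows searched for these 3 genes are at another start. The starts were at most 51 bases apart in the other 6 genes, of which 5 had a CHR within 25 bases of the RefSeq start. These matches describe letters only and say nothing of which factors were bound.

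The libraries held 25320109 to 29105710 counts, of which the 10 genes took 273 to 2346 counts each per brain. All 10 passed the filter on low counts, with 17865 genes tested. Expression is given as CPM, the usual scaling of counts to a common library total, here after TMM adjustment of the totals. Log2FC is the log2 fold change, stress vs. control, from the quasi-likelihood test of edgeR with a term for sex, and SE is its standard error. The adjusted p-value (*P*adj) is by the Benjamini-Hochberg method over all genes tested, and a gene was called at *P*adj under 0.05. Of the 10 mitotic kinesins, 8 were called higher in the stressed brains and 0 lower, against 6.49% of all genes tested called higher and 7.27% called lower. All 10 had a positive Log2FC, with a median of 0.26, beside a median of 0.0015 over all genes tested. In 8 of the 10, every stressed brain was above every control brain, which held for 8.2% of all genes tested. Because earlier results of these data were known when the genes were chosen, these counts are not an independent test.

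**Figure D1:**
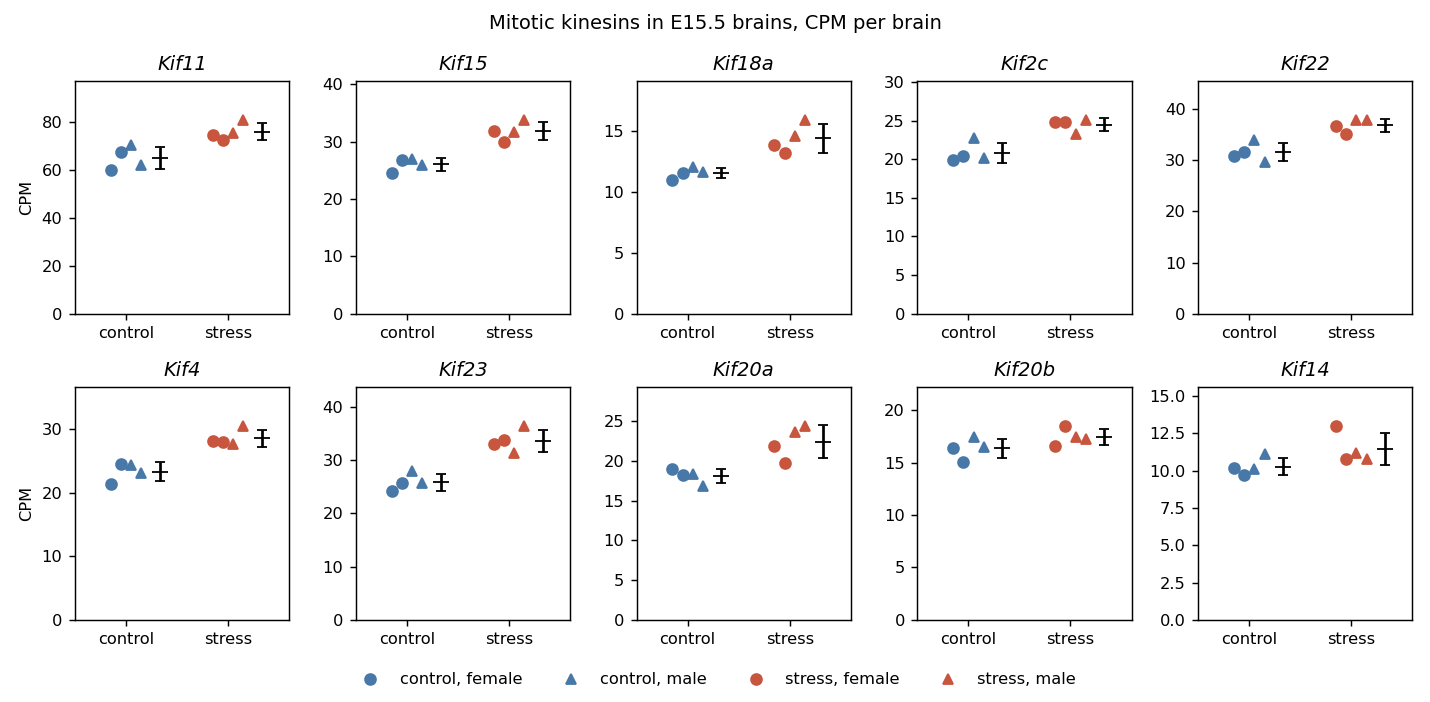
CPM of each mitotic kinesin in each brain, with 1 panel per gene and the vertical axis in CPM from 0. Circles are females and triangles males, blue control and red stress, and the black bar is the mean ± SD of 4 brains. The groups are apart in 8 panels and overlap in those of *Kif20b* and *Kif14*.

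The motors that assemble the spindle were both higher in the stressed brains. *Kif11* (chr19:37376403-37421859, plus strand, mm10) encodes Eg5, which pushes the spindle poles apart by sliding antiparallel microtubules. It was at 60.0 CPM in F36, 67.4 in F37, 70.5 in M30 and 62.3 in M31 of the control group. In the stress group it was at 74.7 CPM in F34, 72.6 in F35, 75.6 in M28 and 81.0 in M29. The lowest stressed brain was above the highest control brain. The means were 65.0 ± 4.76 CPM in control and 76.0 ± 3.59 CPM in stress (SD, n = 4), a rise of 16.9% (Log2FC 0.22, SE 0.04, *P*adj = 0.000474 in edgeR). *Kif15* (chr9:122951046-123018733, plus strand) encodes the TPX2-bound motor that can keep spindle poles apart when Eg5 is inhibited. Its CPM was 24.5 in F36, 26.8 in F37, 26.9 in M30 and 25.9 in M31. It was 31.8 in F34, 29.9 in F35, 31.7 in M28 and 33.8 in M29, again with no overlap. The mean rose from 26.0 ± 1.11 to 31.8 ± 1.56 CPM, or by 22.3% (Log2FC 0.29, SE 0.05, *P*adj = 0.000115 in edgeR). The promoters of both genes, printed above, each hold a CHR at the same distance from the RefSeq start. That start lay 21 bases before the start given here in *Kif11* and 35 bases after it in *Kif15*.

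All 4 kinesins that act on chromosomes and kinetochores were called higher. *Kif18a* (chr2:109280738-109341747, plus strand) encodes a plus-end motor that damps the movements of chromosomes at the metaphase plate. It was at 11 CPM in F36, 11.5 in F37, 12 in M30 and 11.6 in M31, and at 13.8 in F34, 13.2 in F35, 14.6 in M28 and 15.9 in M29. It had the smallest spread among control brains of the 10, a coefficient of variation of 3.63%, and rose from 11.5 ± 0.418 to 14.4 ± 1.17 CPM (Log2FC 0.32, SE 0.06, *P*adj = 0.000906 in edgeR). It is the gene whose promoter has an E2F site and no CHR. *Kif2c* (chr4:117159639-117182639, minus strand) encodes MCAK, which takes microtubules apart at centromeres and so helps to correct wrong attachments. Its control values were 19.9 CPM in F36, 20.4 in F37, 22.8 in M30 and 20.1 in M31. Its stress values were 24.8 CPM in F34, 24.8 in F35, 23.2 in M28 and 25.1 in M29. Control M30 and stress M28 came close, at 22.8 and 23.2 CPM, without crossing, and the mean rose from 20.8 ± 1.36 to 24.5 ± 0.868 CPM (Log2FC 0.23, SE 0.05, *P*adj = 0.00317 in edgeR).

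The chromokinesins bind chromosome arms. *Kif22* (chr7:127027729-127042471, minus strand) encodes Kid, which pushes the arms away from the poles. Its CPM was 30.9 in F36, 31.7 in F37, 33.9 in M30 and 29.7 in M31 of the control group. It was 36.6 in F34, 35.2 in F35, 37.8 in M28 and 37.9 in M29 of the stress group. The groups did not overlap, and the mean of 31.6 ± 1.76 CPM in control was 36.9 ± 1.25 CPM in stress (Log2FC 0.22, SE 0.04, *P*adj = 0.00104 in edgeR). *Kif4* (chrX:100625737-100727214, plus strand) encodes a chromokinesin that shapes mitotic chromosomes and, with PRC1, sets the length of the central spindle. It was at 21.3 CPM in F36, 24.5 in F37, 24.3 in M30 and 23.1 in M31, and at 28.1 in F34, 28 in F35, 27.6 in M28 and 30.5 in M29. Every stressed brain was above every control brain, with means of 23.3 ± 1.47 and 28.6 ± 1.31 CPM (Log2FC 0.29, SE 0.05, *P*adj = 0.000248 in edgeR). The counts were made without regard to strand, and 15.1% of the exon bases of *Kif4* are shared with *Pdzd11* on the opposite strand. *Pdzd11*, named because of this overlap, was itself called higher, from 28.8 ± 0.767 to 32.5 ± 1.01 CPM (Log2FC 0.18, SE 0.04, *P*adj = 0.0063 in edgeR), and its part in the value of *Kif4* was not tested. The shares of exon bases under another gene were 1.96% for *Kif22* and 0.112% for *Kif18a*, and the pseudogenes *Kif4-ps* and *Kif22-ps* had 0 counts in all 8 brains.

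The kinesins of the central spindle and cytokinesis ranged from the largest difference among the 10 to the smallest. *Kif23* (chr9:61915905-61946774, minus strand) encodes MKLP1, which with the *Racgap1* product forms centralspindlin, the complex that bundles the central spindle. Control brains had 24.1 CPM in F36, 25.6 in F37, 27.9 in M30 and 25.6 in M31, and stressed brains had 33.1 in F34, 33.7 in F35, 31.4 in M28 and 36.4 in M29. The gap between the groups, from 27.9 to 31.4 CPM, was free of values. The mean rose by 30.5%, from 25.8 ± 1.55 to 33.7 ± 2.09 CPM (Log2FC 0.38, SE 0.05, *P*adj = 1.39e-05 in edgeR). *Kif20a* (chr18:34624624-34633265, plus strand) encodes MKLP2, which carries the Aurora B complex to the central spindle. It was at 19.0 CPM in F36, 18.2 in F37, 18.4 in M30 and 16.9 in M31, and at 21.9 in F34, 19.7 in F35, 23.7 in M28 and 24.4 in M29. Stress F35 stood only just above control F36, and the stressed brains had the widest spread of the 10 genes, a coefficient of variation of 9.28%. The mean rose from 18.1 ± 0.873 to 22.4 ± 2.08 CPM (Log2FC 0.31, SE 0.06, *P*adj = 0.000801 in edgeR). Of its exon bases, 33.2% are shared with *Cdc23* on the opposite strand, an anaphase-promoting complex gene with a level of 106 ± 0.711 CPM in control and 111 ± 2.32 CPM in stress. *Cdc23*, named because of this overlap, was not called (Log2FC 0.06, SE 0.03, *P*adj = 0.164 in edgeR), and its part in the counts of *Kif20a* was not tested.

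The other two members were not called. *Kif20b* (chr19:34922361-34975745, plus strand) encodes MPP1, a motor of late cytokinesis whose loss is known to reduce brain size in mice. Its CPM was 16.4 in F36, 15.1 in F37, 17.4 in M30 and 16.5 in M31, and 16.6 in F34, 18.5 in F35, 17.4 in M28 and 17.3 in M29. The groups overlapped, with means of 16.4 ± 0.971 and 17.4 ± 0.785 CPM (Log2FC 0.09, SE 0.06, *P*adj = 0.327 in edgeR). Its promoter holds 2 adjacent CHR matches just after the start. *Kif14* (chr1:136466343-136531511, plus strand) encodes a motor that binds PRC1 and citron kinase at the midbody. It was at 10.2 CPM in F36, 9.7 in F37, 10.1 in M30 and 11.1 in M31, and 13.0 in F34, 10.8 in F35, 11.2 in M28 and 10.8 in M29. Stress F34 stood alone above the rest, and the other stressed brains were close to control M31. The means were 10.3 ± 0.596 and 11.5 ± 1.06 CPM (Log2FC 0.16, SE 0.07, *P*adj = 0.166 in edgeR), and without F34 the Log2FC was 0.08. The Log2FC of *Kif14* without 1 brain ranged up to 0.21, and it was called in 0 of 8 such fits.

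The counts of *Kif23* and *Kif20b* were also divided within each brain, which removes the library total. The pair was chosen after the values were seen, as the members with the largest and the smallest Log2FC. The ratio was 1.47, 1.7, 1.6 and 1.55 in control F36, F37, M30 and M31, and 2, 1.82, 1.8 and 2.1 in stress F34, F35, M28 and M29. The ratio was higher in every stressed brain than in every control brain. A higher ratio in stress follows from this choice of pair, and no test was made. The 8 called genes stayed called when each brain was left out in turn, with a largest *P*adj of 0.0155, that of *Kif2c*, over these fits in edgeR.

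The brains ranked alike for most of the genes. The log2 CPM of each gene was centred on its own mean over the 8 brains and averaged over the 10 genes. The average was -0.18 in F36, -0.13 in F37, -0.05 in M30 and -0.14 in M31 of the control group. It was 0.12 in F34, 0.07 in F35, 0.11 in M28 and 0.19 in M29 of the stress group. Stress M29 was the highest brain for 8 genes, F34 for *Kif14* and F35 for *Kif20b*, while control F36 was the lowest for 6 genes. M29 also had the most counts in all, 29105710. The summed level of the 10 genes was 237 to 264 CPM in the control brains and 286 to 313 CPM in the stressed brains.

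**Figure D2:**
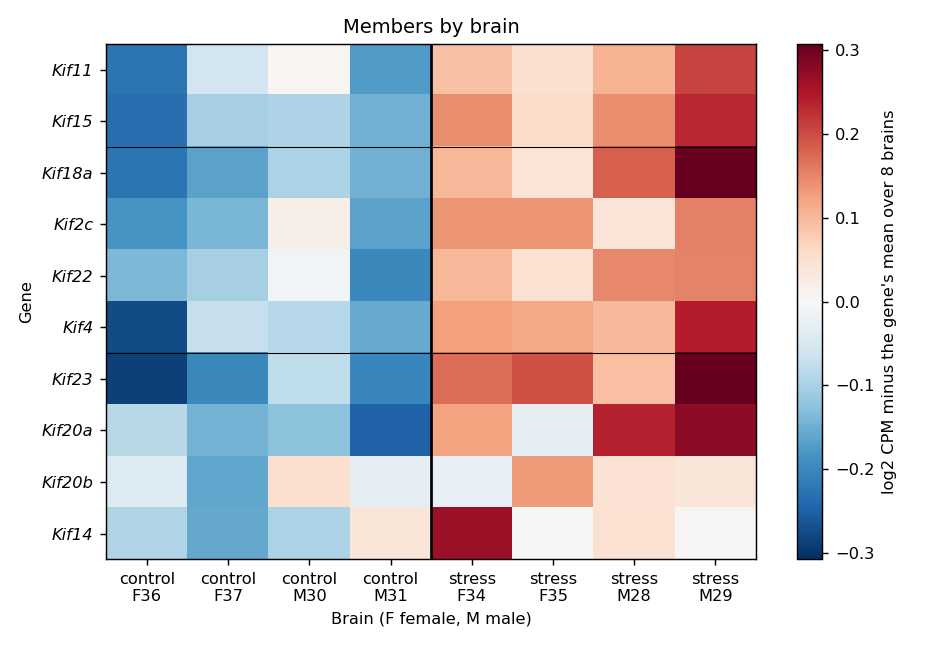
Log2 CPM of each mitotic kinesin in each brain, minus the gene's mean over the 8 brains, on a colour scale from blue (below the mean) to red (above). Rows are grouped as spindle assembly, chromosome, and central spindle and cytokinesis kinesins, and the vertical line parts control from stress. M29 is the reddest column and F36 the bluest, and the rows of *Kif20b* and *Kif14* depart from the others.

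Levels of different genes were compared per kilobase, in the control brains. On the CPM per kilobase of all exon bases, *Kif11* was highest at 13.5 ± 0.988, followed by *Kif22* at 6.44 ± 0.358. *Kif20a* at 4.77 ± 0.23 and *Kif2c* at 4.77 ± 0.311 overlapped, as did *Kif15* at 2.36 ± 0.101 and *Kif20b* at 2.35 ± 0.14. Between those pairs came *Kif4* at 4.23 ± 0.267 and *Kif23* at 3.26 ± 0.196. *Kif18a* at 1.17 ± 0.0426 and *Kif14* at 0.992 ± 0.0576 were the lowest (SD, n = 4 each). The order depended on the length used. Exon bases shared with another gene, as in *Kif20a* and *Kif4*, were not taken out of these lengths. Per kilobase of the longest coding transcript, a scaling added after seeing the data, *Kif22* at 14.9 ± 0.831 overlapped *Kif11* at 13.5 ± 0.988 at the top, and *Kif23* at 7.59 ± 0.456 moved above *Kif20a* at 4.93 ± 0.238. *Kif14* at 1.15 ± 0.0667 stayed the lowest.

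Neither sex nor its combination with stress gave a call among the 10 genes. Between males and females 0 of the 10 were called by edgeR, 0 had an unadjusted p under 0.05, and DESeq2 called 0, beside 0.0896% of all genes called in edgeR. The X-linked *Kif4* had a male vs. female Log2FC of 0.05 (SE 0.05, *P*adj = 0.927 in edgeR), and the largest was that of *Kif18a*, at 0.13 (SE 0.06, *P*adj = 0.849 in edgeR). For the sex by stress interaction 0 of 10 were called by edgeR, against 0.0056% of all genes, and DESeq2 called 0. The 1 gene with an unadjusted p under 0.05 was *Kif20a*, whose Log2FC was larger in males than in females by 0.28 (SE 0.11, *P*adj = 0.67 in edgeR).

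Within each sex the comparison was 2 brains against 2. In the females 5 of the 10 were called higher in stress by edgeR (*Kif11*, *Kif15*, *Kif2c*, *Kif4* and *Kif23*), against 1.64% of all genes tested. In the males 7 were called higher (*Kif11*, *Kif15*, *Kif18a*, *Kif22*, *Kif4*, *Kif23* and *Kif20a*), against 3.68%. All 10 had a positive Log2FC in both sexes. *Kif20a* had a Log2FC of 0.17 (SE 0.08) in females and 0.44 (SE 0.07) in males, and *Kif14* had 0.27 (SE 0.10) in females and 0.05 (SE 0.10) in males. *Kif4* was nearly equal, at 0.29 (SE 0.07) in each sex. *Kif23* was at 0.43 (SE 0.07) in females and 0.34 (SE 0.07) in males. These within-sex calls depended on the tool. DESeq2 called 1 gene in the females and 3 in the males, and edgeR without the filter on low counts called 0 in the males, where 7 had an unadjusted p under 0.05.

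**Figure D3:**
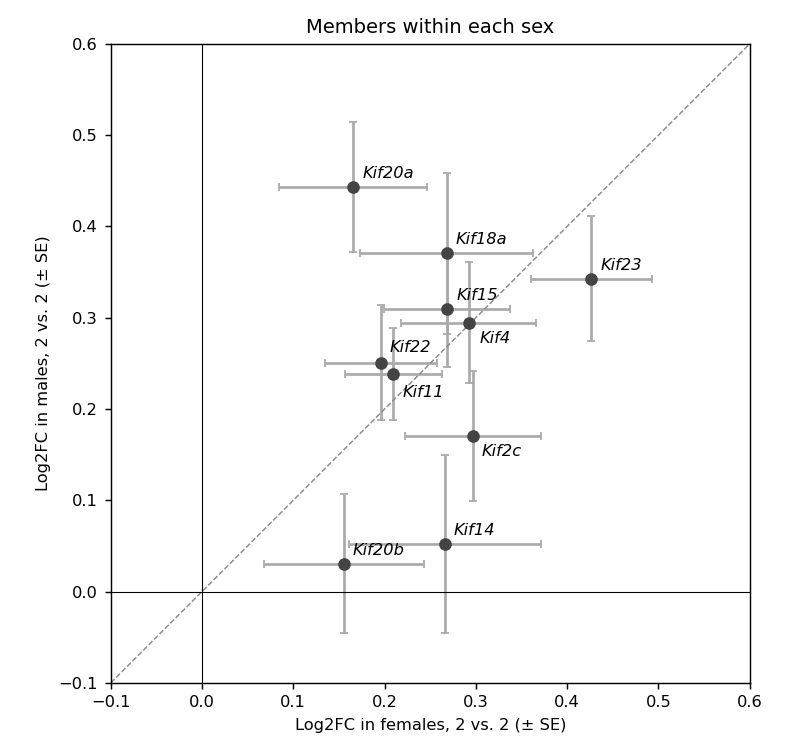
Log2FC of each mitotic kinesin in females (horizontal axis) against males (vertical axis), with bars of ± 1 SE and 2 brains against 2 in each sex. The dashed line marks equal values. *Kif20a* lies farthest above the line and *Kif14* farthest below it, and no interaction was called.

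Other kinesins with a mitotic role gave a further comparison. *Cenpe*, the kinetochore motor that carries chromosomes to the metaphase plate, was at 33.3 to 37.8 CPM in control and 38.6 to 47.6 CPM in stress (Log2FC 0.23, SE 0.05, *P*adj = 0.00317 in edgeR). *Kifc1*, a minus-end motor that focuses spindle poles, was at 16.0 to 18.3 CPM and 20.5 to 23.0 CPM (Log2FC 0.31, SE 0.06, *P*adj = 0.000549 in edgeR). *Kif18b*, which shortens astral microtubules, was at 13.5 to 14.0 CPM and 14.5 to 17.4 CPM (Log2FC 0.25, SE 0.06, *P*adj = 0.00585 in edgeR). All 3 were called higher with no overlap between the groups. Of all genes tested, 6.49% were called higher and 8.2% had every stressed brain above every control brain. *Kif2a*, a microtubule depolymerase that also prunes axon branches of postmitotic neurons, was at 177 ± 5.5 and 180 ± 6.25 CPM, and was not called (Log2FC 0.03, SE 0.03, *P*adj = 0.652 in edgeR). *Kif2b* had at most 1 count in a brain and was not tested.

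The kinesins of axonal, vesicle and ciliary transport were counted as a further list. Of 26 such genes 25 were tested, with 1 called higher and 4 called lower, beside 6.49% and 7.27% of all genes tested. Their median Log2FC was 0.0011, beside 0.0015 over all genes tested. Their summed level was 4681 to 4900 CPM in control and 4660 to 4833 CPM in stress. The call higher was *Kif16b*, an endosome motor (9.08 ± 0.771 and 10.7 ± 0.756 CPM, Log2FC 0.24, *P*adj = 0.0272 in edgeR). The calls lower were *Kifc2* (69.3 ± 3.84 and 61.9 ± 2.33 CPM, Log2FC -0.16, *P*adj = 0.00214 in edgeR), *Kif26b* (Log2FC -0.14), *Kif1a*, the motor of synaptic vesicle precursors (799 CPM in control and 752 CPM in stress, Log2FC -0.09), and *Kifc3* (Log2FC -0.17), named after its values were seen. Only *Kifc2* of these 5 was called in all 8 fits that left out 1 brain, and DESeq2 called *Kifc2*, *Kif26b* and *Kif1a* but neither *Kif16b* nor *Kifc3*. The count of calls higher was 0 without F37, M31, M28 or M29 and 2 without F35, and that of calls lower was 2 without F37, M31, F35 or M28 and 1 without M29. Of the kinesin light chains and the adaptor *Kifap3*, 4 of 5 were tested, 0 were called by edgeR or by DESeq2, and the median Log2FC was -0.05.

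**Figure D4:**
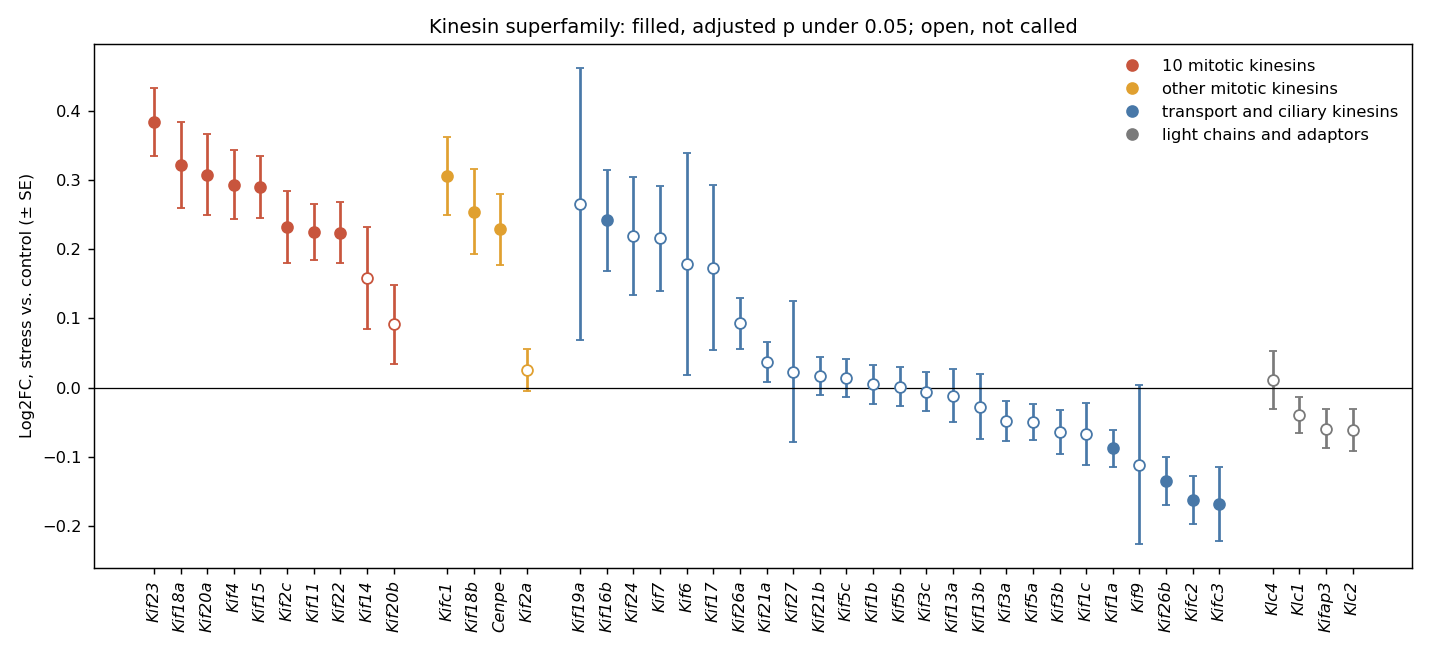
Log2FC, stress vs. control, of each kinesin gene tested (points, ± SE), sorted within the 10 mitotic kinesins, other mitotic kinesins, transport and ciliary kinesins, and light chains and adaptors. Filled points were called at an adjusted p under 0.05. The mitotic kinesins lie between 0.09 and 0.38, and the transport and ciliary kinesins spread on both sides of 0.

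Genes that work with these motors were counted by list, beside 6.49% of all genes tested called higher and 7.27% called lower. Of 11 central spindle partners, 9 were called higher, with a median Log2FC of 0.20. They included *Racgap1*, the MKLP1 partner (79.4 ± 3.93 and 90.8 ± 5.05 CPM, Log2FC 0.19, *P*adj = 0.000903 in edgeR), *Prc1*, the bundler of antiparallel microtubules (Log2FC 0.20), *Ect2*, the RhoA exchange factor (Log2FC 0.23), and *Aurkb*, the Aurora B kinase (Log2FC 0.26). The 1 call lower was *Cit*, citron kinase, named after its values were seen (32.6 ± 0.928 and 29.5 ± 2.37 CPM, Log2FC -0.15, *P*adj = 0.036 in edgeR). This call was lost under DESeq2, without the sex covariate, and without F36, M30, M31, F34, M28 or M29. The 9 calls higher became 7 under DESeq2, without the sex covariate, and without M31 or F34, and 6 without M29. Of 14 spindle assembly partners 11 were called higher and 0 lower, with a median of 0.21. Without 1 brain, 9 to 11 of them were called higher. *Tpx2*, the targeting factor of Aurora A and KIF15, rose from 57.0 ± 2.01 to 67.0 ± 3.47 CPM (Log2FC 0.23, *P*adj = 3.95e-05 in edgeR), and *Tacc3*, which bridges spindle fibres, from 34.2 ± 1.39 to 43.4 ± 2.52 CPM (Log2FC 0.34, *P*adj = 1.48e-05 in edgeR). *Psrc1* and *Nusap1*, microtubule-binding proteins of the spindle, had Log2FC values of 0.31 and 0.20 and were called.

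Of 13 kinetochore partners 10 were called higher and 0 lower, with a median of 0.25, the closest of the lists to the 0.26 of the kinesins. *Cenpa*, the histone that marks centromeres, had a Log2FC of 0.30, *Nuf2* and *Spc25*, subunits of the NDC80 complex, 0.29 each, and *Cenpf* 0.20, all of them called. Of 15 S phase genes 11 were called higher and 0 lower, with a median of 0.15. The ribonucleotide reductase subunits *Rrm2* and *Rrm1* had Log2FC values of 0.29 and 0.21, the methylation maintenance factor *Uhrf1* 0.24 and the helicase subunit *Mcm2* 0.23, all called. Of 14 regulators of the MuvB, B-Myb and FoxM1 system 5 were called higher and 0 lower, with a median of 0.06. Of all genes tested, 6.49% were called higher. They were *Mybl2* (Log2FC 0.25), *Foxm1* (0.18), *Rbl1* (0.20), *Nfyb*, a subunit of the CCAAT-binding factor (0.14), and *Lin9* (0.16), the last named after its values were seen. *Lin9* was called in only 1 of 8 fits without 1 brain. *Foxm1* was not called without F37, M31 or F34, and *Mybl2* was not called without M29. The count of this list was 3 without F37, M31, F34 or M29. No list was compared with another by a test.

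**Figure D5:**
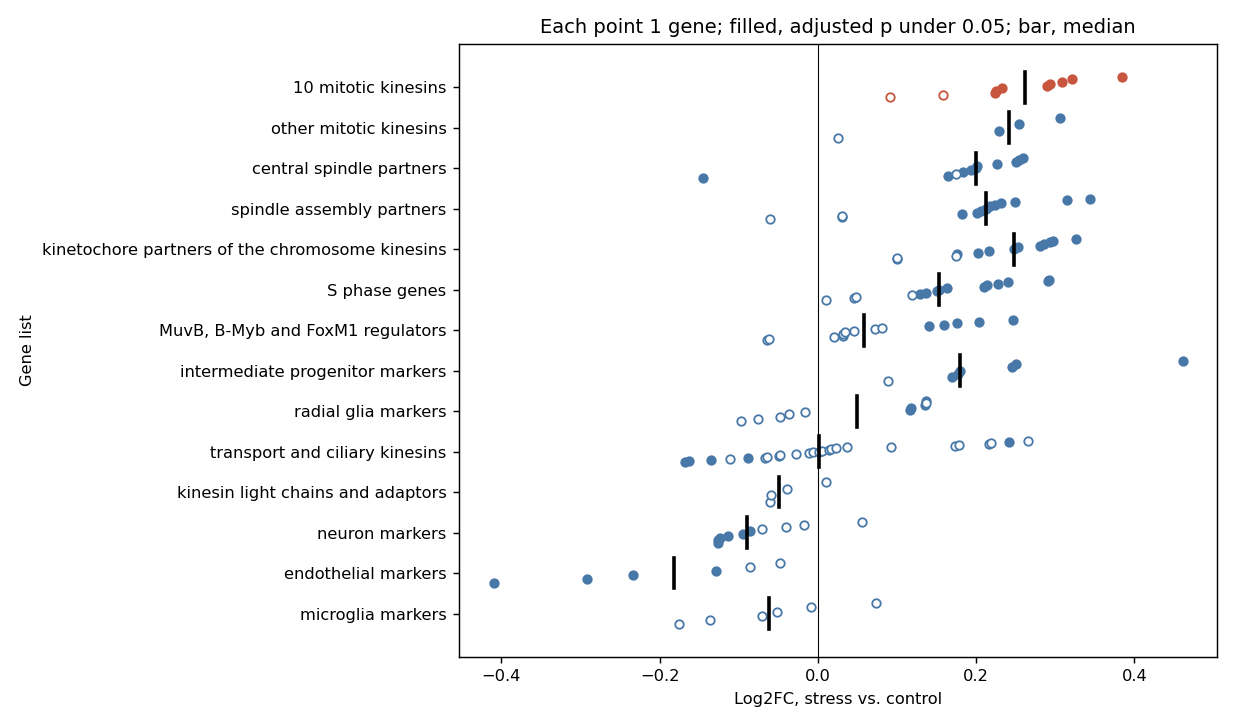
Log2FC, stress vs. control, of each gene tested (points) in the kinesin lists, their partner lists and cell type marker lists, with the median of each list as a bar and filled points for genes called at an adjusted p under 0.05. The medians of the mitotic kinesins, spindle and kinetochore partners lie at 0.20 to 0.26, and those of neuron, endothelial and microglia markers lie below 0.

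Some markers of cell types were called between the groups as well, and their part in the kinesin result was not tested. The shares over all genes tested were 6.49% called higher and 7.27% called lower. Of 10 radial glia markers 4 were called higher and 0 lower, with a median of 0.05. The other 6 were not called, and 5 of the 10 had a negative Log2FC, down to -0.10. Their summed level overlapped between the groups and was 1728 to 1838 CPM in control and 1764 to 1891 CPM in stress. Among the calls, *Pax6* rose from 70.3 ± 1.95 to 77.2 ± 2.46 CPM and *Vim* had a Log2FC of 0.12. Radial glia calls higher numbered 3 under DESeq2, without the sex covariate, and without F37, F34, M28 or M29. They numbered 5 without M30 or without the filter on low counts. Without M31, 1 radial glia marker was called lower. Of 7 intermediate progenitor markers 6 were called higher, with a median of 0.18 and sums of 358 to 389 and 397 to 445 CPM. *Eomes*, their defining transcription factor, rose from 91.1 ± 1.22 to 108 ± 4.70 CPM (Log2FC 0.25, *P*adj = 8.4e-06 in edgeR), and *Neurog2* had a Log2FC of 0.24. The count of 6 was 3 under DESeq2 and 3 without M31, F34 or M29.

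Of 10 neuron markers 6 were called lower and 0 higher, with a median of -0.09, sums of 7406 to 7654 and 7182 to 7558 CPM, and Log2FC values of -0.12 for *Gap43* and -0.13 for *Rbfox3*. The count of 6 was 4 under DESeq2, 3 without the sex covariate, 3 without F36, M28 or M29, and 2 without F34. Of 6 endothelial markers 4 were called lower, among them *Flt1* (Log2FC -0.41) and *Kdr* (-0.29), with sums of 146 to 163 and 130 to 139 CPM. The count of 4 was 2 under DESeq2, without the sex covariate, and without F37, M31 or M28, while *Flt1* and *Kdr* were called in every one of these fits. All 6 microglia markers were tested, with 0 called by edgeR or by DESeq2 and overlapping sums of 30.5 to 34.2 and 29.1 to 33.3 CPM.

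Of 9 erythroid markers 8 were tested, with 2 called higher (*Hba-x*, Log2FC 1.09, and *Hbb-y*, 0.84, both embryonic globins), 1 lower (0 without F37 or F34) and 5 not called, and overlapping sums of 364 to 412 CPM in control and 370 to 384 CPM in stress. Of 7 mesenchyme markers 6 were tested and 3 called higher, with sums of 16.3 to 29.3 and 21.1 to 62.7 CPM and with overlapping groups. The highest was stress M28, where *Col1a1* was at 11.7 CPM against 0.846 to 3.20 CPM in control and 1.34 to 4.27 CPM in the other stressed brains, and the Log2FC of *Col1a1* was 1.59 with M28 and 0.84 without it. It was not called without M28, DESeq2 called 0 of the list, and the count of 3 was 1 without M28, 2 without M30 or M31, and 5 without F36. The 8 kinesin calls remained without M28, as without any other single brain. The part of mesenchyme RNA in these calls was not tested.

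The genes whose pattern over the 8 brains was nearest to the mean pattern of the mitotic kinesins were found by the root mean square (RMS) difference of centred log2 CPM, over all 17865 genes tested and leaving out the 10 themselves. They were *Skida1* (RMS 0.0275), *Dtl* (0.0285), *Top2a* (0.0303), *Ttk* (0.0304), *Blm* (0.0308), *Hells* (0.0314), *Eomes* (0.0315), *Nr2e1* (0.0321), *Cip2a* (0.0323) and *Sinhcaf* (0.0331). The median RMS over all genes tested was 0.168. Among the kinesins themselves *Kif15* was nearest to their mean pattern, at 0.0328, then *Kif22* at 0.0375 and *Kif11* at 0.0412. *Kif23* at 0.0803, *Kif20a* at 0.0854, *Kif20b* at 0.11 and *Kif14* at 0.117 were the farthest. These are the 4 genes of the central spindle and cytokinesis. The RMS difference rises with the size of a gene's changes as well as with their shape. *Kif23* had the largest Log2FC of the 10, at 0.38, and still ranked 629 of the 17865 genes tested. The mean pattern includes each gene itself, and this order is a description.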

How the data were processed

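RNA of 8 E15.5 brains was sequenced, 1 library per brain, 4 control and 4 stress, with 2 females and 2 males in each. The authors trimmed the reads, aligned them to mm10 (TopHat2 2.1.1) and counted the pairs on exons (featureCounts 1.6.3), with no option for strand. The deposited values are raw counts per gene, with no normalization or filter. Of 54752 identifiers, 54723 were matched to a symbol.

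Genes were kept by filterByExpr (minimum count 10), scaled by TMM and tested by the quasi-likelihood functions of edgeR 4.0.16 (glmQLFit, glmQLFTest) in R 4.3.3, with terms for sex and condition. The authors' model also held batch. Neither the labels nor the study's sample sheet has a column for batch, so it was not modelled. SE is the size of Log2FC divided by the square root of F. Log2 CPM used a prior count of 2. The scripts were tested on simulated data. Alternatives were the Wald test of DESeq2 1.42.0, median-of-ratios and upper-quartile normalization, no filter, no sex covariate, and each brain left out. Exon overlaps used the exon coordinates of the count tables on mm10. The longest coding transcripts came from GENCODE vM21, and promoters from RefSeq (GRCm38.p6). Counts of other animals and protein sequences were not used here.

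The members and gene lists were chosen with earlier results of these data known. The genes named are the 10 members, the other mitotic kinesins, at most 4 genes per remaining list with the smallest p, and the 10 nearest in pattern, with exceptions stated. Sampling error of a count is included in the test's spread, and with 273 to 2346 counts per kinesin and brain it is largest for *Kif14*.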

Additional observations from a re-analysis of the deposited data

How the results depend on the processing

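All 130 values of the 10 kinesins under the alternatives (10 genes, 13 settings) kept their direction and their side of the threshold. Over the fits without 1 brain, 8 kinesins were called in every fit and the median Log2FC ranged from 0.23 to 0.29. Within the sexes, DESeq2 called 1 kinesin in females and 3 in males, and edgeR with no filter called 0 in males. For transport and ciliary kinesins, DESeq2 called 0 higher, and without 1 brain the calls ranged from 0 to 2 higher and from 1 to 4 lower. For central spindle partners, DESeq2 and the fit with no sex covariate called 7 higher and 0 lower. Without 1 brain the range was 6 to 9 higher and 0 to 1 lower. The MuvB, B-Myb and FoxM1 list ranged from 3 to 5. The causes were not tested.

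The direction of 4 uncalled genes turned without 1 brain. Log2FC ranged from -0.0005 (without F35) to 0.0495 for *Kif2a*, from -0.3039 to 0.0899 (without F35) for *Aif1*, from -0.0085 (without M28) to 0.1533 for *Csf1r*, and from -0.0157 (without M30) to 0.0394 for *Klc4*, which was also below 0 without M29. Over all genes tested, edgeR called 1160 higher and 1298 lower, DESeq2 748 and 911, and edgeR without M29 736 and 854. In the narrower promoter window, 200 bases before the start to 50 after, a CHR was present in 7 of 9 kinesin promoters (77.8%) and 15.6% of all promoters. No paired analysis was possible because the animal numbers of the 2 groups are not shared. With 1 litter per group, no setting parts litter from condition.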
